A study of Homo sapiens with 12 samples.

Results

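The comparison described here set MCF-10A cells carrying a mutated Notch1 receptor against the same cells carrying an empty retroviral vector. Its members were the 3 arrays titled Notch1 L1601P+∆P and the 3 arrays titled vector control, chosen by title, which made 6 of the 12 arrays of the series. MCF-10A is an established, non-tumorigenic human mammary epithelial cell line. RNA was collected 48 h after retroviral infection in every group, and the series held 4 groups of 3 arrays: Notch1 L1601P+∆P, wild-type full-length Notch1, NICD (the free intracellular domain of Notch1, whose sample descriptions add gfp to the name) and vector control. The vector arrays carried the same infection step, so it is shared by every group compared. L1601P is a substitution in the heterodimerization domain of NOTCH1, which holds the receptor closed until ligand binds, and ∆P denotes loss of the C-terminal PEST region, which marks the active fragment for degradation. Changes of both kinds are known from T-cell acute lymphoblastic leukemia. The titles call the replicates biological and say no more about how separately they were cultured, so the p-values rest on the spread among these arrays, which may be technical. The share of infected cells, any selection, the promoter in the vector and the species of the Notch1 cDNA were not stated in the sources used here.

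Notch receptors are cut in the membrane after binding a ligand of the Jagged or Delta family on a neighbouring cell, and the released intracellular domain enters the nucleus. There it joins the DNA-binding protein RBPJ and a Mastermind coactivator, and the complex turns on genes such as those of the HES and HEY repressors and the feedback inhibitor NRARP. In mammary epithelium the pathway takes part in the choice between luminal and basal fates, and in epidermal keratinocytes it promotes differentiation.

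The promoters below are shown because they belong to the genes with the 2 largest rises (PLA2G2A and OLFM4), to called Notch targets (NRARP and HES4) and to classical targets that did not pass the test (HES1 and HEY2). Each is the stretch from 250 bases before to 50 bases after the RefSeq gene start on GRCh38.p14, written 5′ to 3′ on the gene's own strand. Capitals mark TGGGAA, the core of the RBPJ recognition site, or TTCCCA, which is the same motif on the opposite strand.
PLA2G2A, chr1:19979610-19979909, minus strand: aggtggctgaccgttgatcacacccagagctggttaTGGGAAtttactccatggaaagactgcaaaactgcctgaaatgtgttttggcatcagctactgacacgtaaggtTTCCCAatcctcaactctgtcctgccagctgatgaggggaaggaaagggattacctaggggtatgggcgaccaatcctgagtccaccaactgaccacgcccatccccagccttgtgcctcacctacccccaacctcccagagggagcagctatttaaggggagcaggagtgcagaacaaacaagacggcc
OLFM4, chr13:53028563-53028862, plus strand: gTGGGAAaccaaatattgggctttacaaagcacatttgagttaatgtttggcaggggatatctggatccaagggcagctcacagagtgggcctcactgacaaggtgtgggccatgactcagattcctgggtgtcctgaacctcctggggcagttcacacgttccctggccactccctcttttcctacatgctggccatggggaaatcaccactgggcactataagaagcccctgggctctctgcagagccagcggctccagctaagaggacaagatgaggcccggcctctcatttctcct
NRARP, chr9:137302222-137302521, minus strand: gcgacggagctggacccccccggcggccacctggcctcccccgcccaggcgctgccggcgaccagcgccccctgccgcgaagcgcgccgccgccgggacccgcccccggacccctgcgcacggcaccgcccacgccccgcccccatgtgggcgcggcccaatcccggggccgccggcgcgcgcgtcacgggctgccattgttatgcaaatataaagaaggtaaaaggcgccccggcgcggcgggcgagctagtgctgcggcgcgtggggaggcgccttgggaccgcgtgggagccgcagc
HES4, chr1:1000048-1000347, minus strand: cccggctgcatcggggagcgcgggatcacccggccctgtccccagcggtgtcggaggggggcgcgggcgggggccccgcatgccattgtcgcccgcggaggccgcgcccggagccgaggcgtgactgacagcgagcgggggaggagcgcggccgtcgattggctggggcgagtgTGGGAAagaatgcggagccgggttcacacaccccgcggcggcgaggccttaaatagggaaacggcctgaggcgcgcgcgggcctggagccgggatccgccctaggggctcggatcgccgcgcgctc
HES1, chr3:194135898-194136197, plus strand: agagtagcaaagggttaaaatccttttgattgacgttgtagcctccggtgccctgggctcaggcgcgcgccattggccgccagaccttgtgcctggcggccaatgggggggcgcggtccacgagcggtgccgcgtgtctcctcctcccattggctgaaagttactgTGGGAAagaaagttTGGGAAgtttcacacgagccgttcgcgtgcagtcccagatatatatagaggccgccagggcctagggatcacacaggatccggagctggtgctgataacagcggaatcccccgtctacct
HEY2, chr6:125749382-125749681, plus strand: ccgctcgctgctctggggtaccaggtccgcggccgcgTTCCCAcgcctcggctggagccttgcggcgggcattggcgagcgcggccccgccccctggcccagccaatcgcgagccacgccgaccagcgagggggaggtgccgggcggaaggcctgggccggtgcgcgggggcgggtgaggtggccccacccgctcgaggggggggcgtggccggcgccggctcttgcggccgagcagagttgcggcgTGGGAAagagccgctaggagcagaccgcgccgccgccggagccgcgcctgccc
The motif lay at positions -214 and, on the opposite strand, -140 in PLA2G2A, at -249 in OLFM4 and at -76 in HES4, counted so that the first base after the 250 upstream bases is 0. HES1 held it at -84 and -70. HEY2 held it at -3 and, on the opposite strand, at -213, in both places within the longer form CGTGGGAA. The NRARP window held none, which says only that these letters are not in that window. Promoters were matched for 15382 of the 19775 genes tested, and 22.8% of them held TGGGAA on either strand while 0.93% held CGTGGGAA. The share with TGGGAA was 25.5% among genes called higher with the mutant (84 of 330) and 19.1% among genes called lower (88 of 460). Among called genes at least 2-fold higher it was 34.2% (13 of 38). For CGTGGGAA the shares were 0.606% (2 of 330), 0.435% (2 of 460) and 2.63% (1 of 38) in the same order. These shares describe letters in a window and do not locate binding.

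Gene levels are log2 signals, on which a difference of 1 is a 2-fold change, and each gene was read from the probe set (a group of short probes summarised as 1 value) with the highest mean over the 12 arrays. The median log2 signal of an array ran from 5.68 to 5.69 with Notch1 L1601P+∆P and from 5.66 to 5.69 with vector. Control probe sets for the 3′ and 5′ ends of a transcript, whose gap grows as RNA degrades, gave values that overlapped between the groups. The gap (3′ minus 5′) for GAPDH ran from -0.02 to 0.01 with the mutant and from -0.02 to 0.00 with vector, and for ACTB from 0.25 to 0.37 and from 0.24 to 0.34 in the same order. On the first principal component of all 12 arrays (69.65% of the variance) the mutant arrays lay between -2.70 and -1.26 and the vector arrays between -21.06 and -19.09. Of 9 genes listed for MCF-10A identity, by their presence or absence, 2 rose (KRT14 and KRT5) and 0 fell (22.2% called, beside 5.12% of all genes). CDH1 (E-cadherin) stood at 11.93 ± 0.08 with the mutant and 11.95 ± 0.05 with vector (SD, n = 3 each) and was not called. EGFR and VIM (vimentin) were also not called. ESR1 and PGR, the estrogen and progesterone receptors that this line is known to lack, had differences of 0.09 and -0.02 that were not called. A difference between groups does not show whether a gene is absent. TP63 and KRT17 were not analysed here.

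NOTCH1, the introduced gene, was read by 2 probe sets that did not act alike. The dimmer one gave 8.72, 8.76 and 8.73 on the Notch1 L1601P+∆P arrays and 6.42, 6.43 and 6.77 on the vector arrays. It rose by 2.20 ± 0.08 (standard error, adjusted p = 7.37e-09 over all 41091 probe sets with 1 symbol, of which 1.45% were called higher and 1.85% lower). Every mutant array lay above every vector array, as for rises in 10.9% of all genes. The brighter one gave 9.51, 9.55 and 9.44 with the mutant and 9.5, 9.38 and 9.45 with vector, so that the groups overlapped. Its difference was 0.06 ± 0.06 (adjusted p = 0.662). On the dimmer probe set the mutant was 0.42 lower than full-length Notch1 (adjusted p = 0.0193), and its difference from NICD was -0.05 (adjusted p = 0.734). The parts of the transcript that the probe sets read, and whether both match the introduced cDNA, were not analysed here.

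Against vector, 428 genes rose and 584 fell with Notch1 L1601P+∆P at an adjusted p under 0.05, which is 2.16% and 2.95% of the 19775 tested and 5.12% in all. Large changes ran upward: of the called genes, 48 rose at least 2-fold and 2 fell at least as far. At 1.5-fold the counts were 137 and 41. The median size of a called change was 0.42 on the log2 scale among the rises and 0.33 among the falls. Rises made up 42.3% of the calls, and 58.4% after cyclic loess normalization of the same values, so which direction held more genes depended on the scaling. The median difference over all genes was -0.01. The count of falls was the less stable: it was 272 to 372 when any of the 6 arrays other than mutant replicate 3 was left out, and the total was 628 without mutant replicate 1, 566 without mutant replicate 2 and 592 without vector replicate 3.

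**Figure D1:**
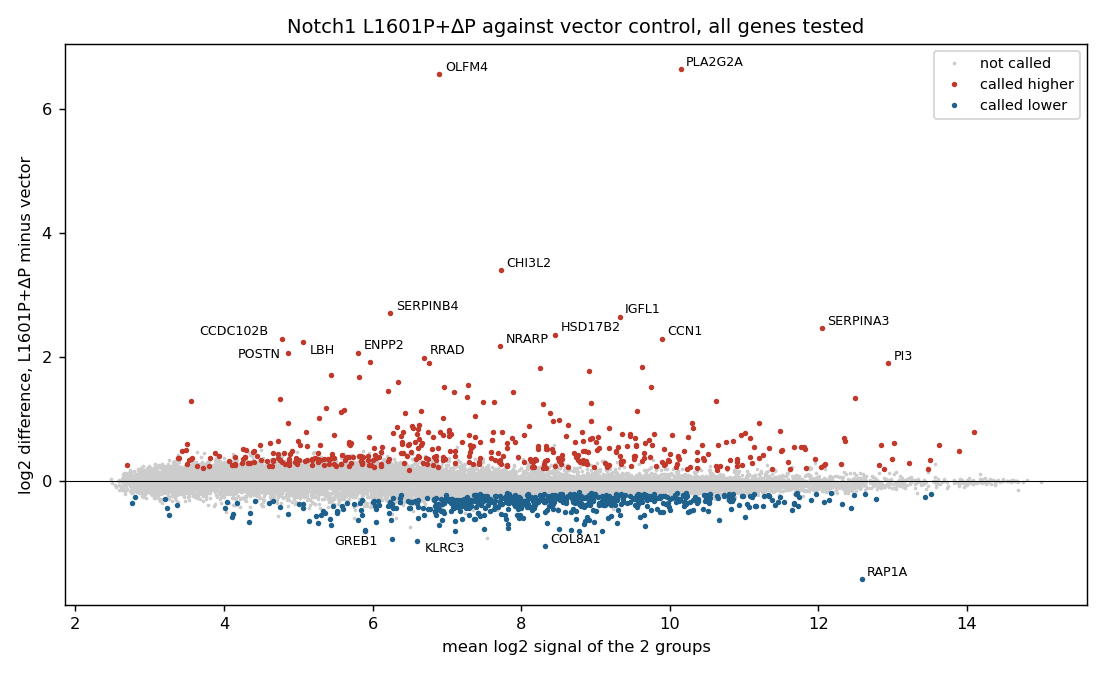
Each point is 1 of the 19775 genes, with the mean log2 signal of the Notch1 L1601P+∆P and vector groups across and the log2 difference (mutant minus vector) up, red where called higher, blue where called lower and grey where not called. PLA2G2A and OLFM4 stand apart near 6.6, and among the falls RAP1A lies lowest at -1.58.

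PLA2G2A, a secreted phospholipase A2 with antibacterial activity, had the largest change. It gave 13.30, 13.56 and 13.55 on the Notch1 L1601P+∆P arrays, against 6.72, 6.94 and 6.84 on the vector arrays. That rise of 6.64 ± 0.07 is 99.5-fold on this scale (adjusted p = 4.01e-14). OLFM4, a secreted glycoprotein known as a marker of intestinal crypt stem cells, gave 10.13, 10.04 and 10.37 with the mutant and 3.51, 3.42 and 3.93 with vector, a rise of 6.56 ± 0.13 (adjusted p = 1.44e-11). The vector level of OLFM4 lies near the bottom of the measured range, which began at 2.27, and such dim signals are compressed in summarised array values. CHI3L2, a chitinase-like secreted protein, gave 9.31, 9.48 and 9.5 with the mutant and 5.99, 6.21 and 5.89 with vector (3.40 ± 0.10, adjusted p = 7.3e-10). For all 3 genes the mutant arrays lay far above the vector arrays, with no overlap, as for rises in 10.9% of all genes.

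Several of the strongest rises were those of genes for secreted defence and acute-phase proteins. Of 25 such genes tested, 8 rose and 0 fell (32% called, beside 5.12% of all genes). The median difference was 0.16 beside -0.01 over all genes, and the 8 and 0 stayed within 1.5 times in every alternative. The gene lists, here and below, were chosen with earlier results of these data known. This list holds PLA2G2A, OLFM4 and CHI3L2, so its share is not independent of their rises. The same 5.12% of all genes applies to the share called in each list below. Some genes stand in more than 1 list, so the shares of different lists are not independent of each other. Beyond the 3 genes above, SERPINA3 (alpha-1-antichymotrypsin, an acute-phase protease inhibitor) gave 13.28, 13.31 and 13.24 with the mutant and 10.93, 10.78 and 10.73 with vector (2.47 ± 0.06, adjusted p = 1.74e-10). PI3 (elafin, an inhibitor of neutrophil elastase) gave 13.92, 13.90 and 13.86 with the mutant and 12.09, 11.90 and 11.97 with vector. Its rise of 1.91 ± 0.06 had an adjusted p of 1.37e-09, and the related inhibitor SLPI rose by 0.50 ± 0.05. The complement proteases C1S and C1R rose by 0.75 ± 0.07 and 0.70 ± 0.10. The other 17 genes did not pass the test, among them LCN2 (0.04), the complement component C3 (0.02), LTF (0.01) and the calprotectin subunits S100A8 (0.28, adjusted p = 0.077) and S100A9 (0.30, adjusted p = 0.074). S100A7 (psoriasin) had a difference of 0.59 and an adjusted p of 0.083.

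Among 20 serpin protease inhibitors, 6 rose and 2 fell (40% called), with a median of 0.08. SERPINB4 and SERPINB3, neighbouring genes for the squamous cell carcinoma antigens, led the list with SERPINA3. SERPINB4 gave 7.51, 7.60 and 7.67 with the mutant and 5.08, 4.64 and 4.94 with vector (2.71 ± 0.11, adjusted p = 2.01e-08), and SERPINB3 rose by 1.53 ± 0.10 (adjusted p = 2.03e-06). The 2 sequences are close relatives, and how far their probe sets read each other's transcripts was not analysed here. SERPINB7 rose by 0.57 ± 0.08, while SERPINE2 (protease nexin) fell by 0.36 and SERPINA1 (alpha-1-antitrypsin) by 0.35. The fall of SERPINE2 was no longer called in the mean of its probe sets (-0.10), and that of SERPINA1 ended without mutant replicate 1 or 2 or vector replicate 1 or 3 (adjusted p 0.0558 to 0.0698).

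The other largest rises included growth factor and matrix genes. IGFL1 and IGFL2, small secreted proteins related to insulin-like growth factors, rose by 2.65 ± 0.11 and 1.83 ± 0.12. IGFL1 gave 10.62, 10.78 and 10.56 with the mutant and 8.17, 7.93 and 7.90 with vector. PAPPA, a protease that cleaves IGF-binding proteins, rose by 1.90 ± 0.15, with 6 of its 11 probe sets called and values from -0.14 to 1.90. HSD17B2, which oxidises estradiol to estrone, gave 9.60, 9.74 and 9.58 with the mutant and 7.36, 7.35 and 7.12 with vector (2.37 ± 0.08, adjusted p = 1.9e-09). ENPP2 (autotaxin, which makes lysophosphatidic acid) rose by 2.07 ± 0.11, and POSTN (periostin, a matrix protein) by 2.07 ± 0.10 with 2 of 4 probe sets called. CXCL14, an epithelial chemokine, gave 6.75, 7.14 and 6.87 with the mutant and 4.76, 4.98 and 5.27 with vector (1.92 ± 0.12, adjusted p = 9.49e-07). It was called on 2 of its 3 probe sets, which ran from 0.36 to 1.92. RRAD, a GTP-binding protein of the RGK family, rose by 1.99 ± 0.12. LBH, a transcription cofactor, rose by 2.25 ± 0.19, and its vector arrays were uneven at 3.53, 4.54 and 3.73. CCDC102B (2.3 ± 0.13) was called on 1 of its 2 probe sets, and TMEM45A rose by 1.85 ± 0.06. Arrays of the 2 groups did not overlap for any of the 20 largest rises, as in 10.9% of all genes, and this was part of how they were picked. All 20 kept their call in every alternative tried, with a highest adjusted p of 0.00221.

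The mutant lay between its comparison groups for these 20 genes. It exceeded full-length Notch1 by up to 4.32 (OLFM4) and fell short of NICD by differences from -5.02 (CXCL14) to -0.69 (IGFL1), and each of these differences passed the test. PLA2G2A averaged 13.47 with the mutant, 10.08 with full-length Notch1, 14.48 with NICD and 6.83 with vector. For CXCL14 the means were 6.92, 5.25, 11.93 and 5.0 in the same order. The comparisons with vector, full-length Notch1 and NICD share the mutant arrays and are not independent of each other.

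**Figure D2:**
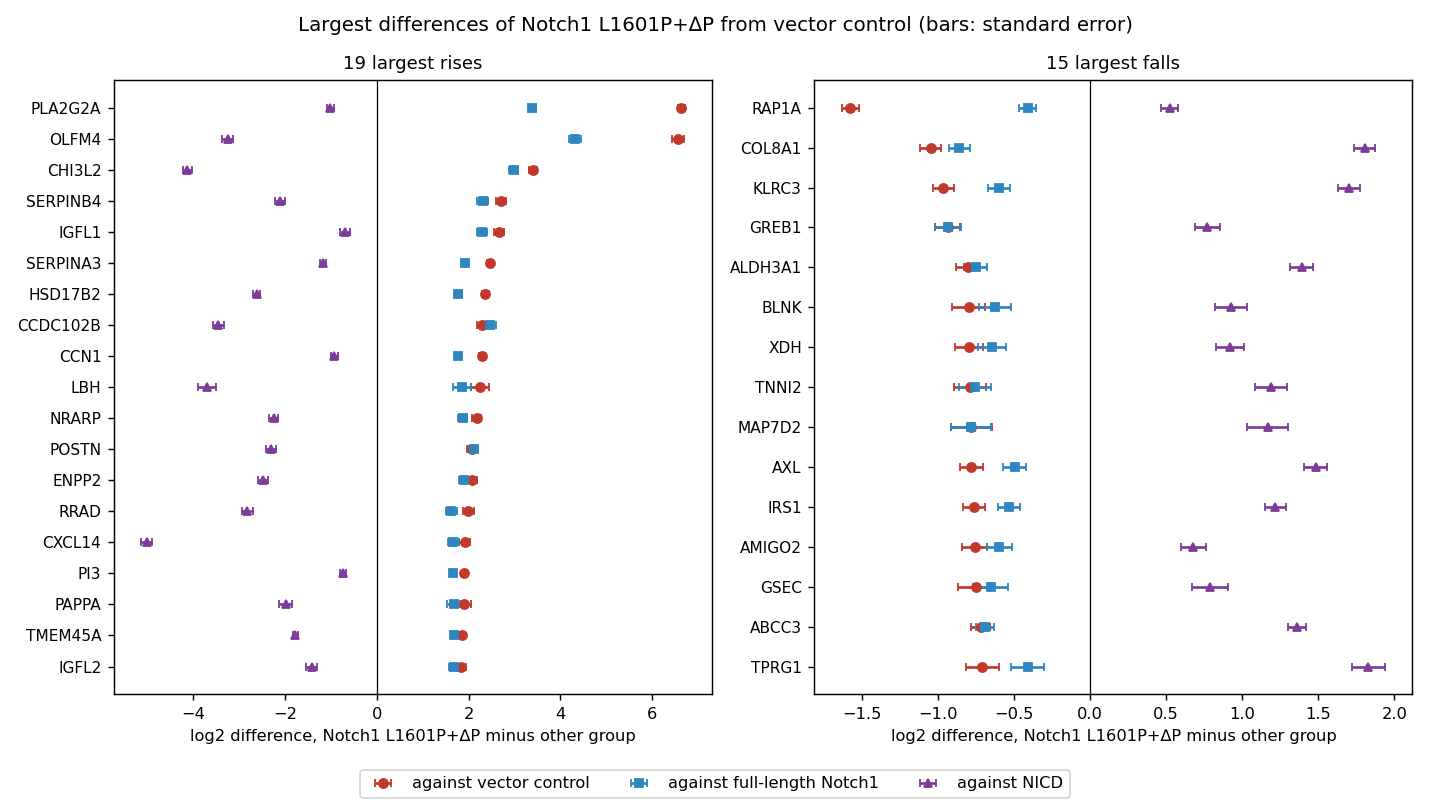
Log2 differences of Notch1 L1601P+∆P from vector control (red circles), full-length Notch1 (blue squares) and NICD (purple triangles) for the 19 largest rises and the 15 largest falls against vector, with standard errors of the fit. For the rises the mutant lies above vector and full-length Notch1 and below NICD, and for the falls the signs are the opposite.

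Notch target genes moved mostly upward. Of 24 tested, 9 rose and 1 fell (41.7% called, beside 5.12% of all genes), with a median of 0.21, and no array left out moved these counts by 1.5 times. NRARP, the ankyrin-repeat inhibitor that Notch induces as feedback, gave 8.88, 8.77 and 8.78 with the mutant and 6.73, 6.79 and 6.38 with vector. It rose by 2.18 ± 0.10 (4.52-fold, adjusted p = 6.22e-08). HES4, a repressor of the HES family, gave 8.30, 8.38 and 8.15 with the mutant and 6.93, 7.0 and 7.05 with vector (1.28 ± 0.09, adjusted p = 2.66e-06). HEY1 rose by 0.72 ± 0.06 (adjusted p = 1.81e-05) and HES2 by 0.71 ± 0.06 (adjusted p = 1.12e-05), both repressors of the same superfamily. HES2 was called on 1 of its 3 probe sets, which ran from 0.23 to 0.71. In neither gene did the groups overlap, as for rises in 10.9% of all genes. The ligand JAG1 rose by 0.70 ± 0.06, with 3 of its 6 probe sets called and values from 0.07 to 0.70. The transcription factor SNAI2 (Slug) rose by 0.64 ± 0.06 and cyclin D1 (CCND1) by 0.39 ± 0.07. Smaller rises were those of NOTCH3 (0.36) and PTCRA (0.32), and each lost its call in 4 of 12 alternatives. NOTCH3 had an adjusted p of 0.0527 to 0.0714 without mutant replicate 1 or 2 or vector replicate 1 or 3, and PTCRA of 0.0638 without mutant replicate 2, 0.0581 without vector replicate 1 and 0.0653 with the 2 groups alone. The mean of the 3 PTCRA probe sets was 0.11 (adjusted p = 0.347).

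Several well-known targets did not pass with all arrays and the deposited values. HES1 gave 9.999, 9.85 and 9.99 with the mutant and 9.60, 9.64 and 9.58 with vector. Its arrays did not overlap, as for rises in 10.9% of all genes, and its adjusted p for a difference of 0.34 ± 0.09 was 0.0569. It was called in 5 of 12 alternatives (cyclic loess, without dim genes, the mean of its probe sets, trend and robust moderation, and the 2 groups alone), with adjusted p-values of 0.00625 to 0.0367. A dimmer HES1 probe set was called in the test over all probe sets (0.27, adjusted p = 0.0446). HEY2 gave 4.10, 3.77 and 4.0 with the mutant and 3.72, 3.71 and 3.62 with vector (0.27 ± 0.08, adjusted p = 0.0739), and averaged 7.37 with NICD. It was called without mutant replicate 2 (adjusted p = 0.0167). MYC had a difference of -0.11, CDKN1A of 0.08 and HES5 of -0.03, with adjusted p-values over 0.05. LFNG (Lunatic fringe), a glycosyltransferase that modifies Notch receptors, went the other way. It gave 6.50, 6.60 and 6.66 with the mutant and 7.09, 7.11 and 7.18 with vector, a fall of 0.54 ± 0.10 (adjusted p = 0.00981), and the mean of its 2 probe sets was not called (-0.32, adjusted p = 0.0551).

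**Figure D3:**
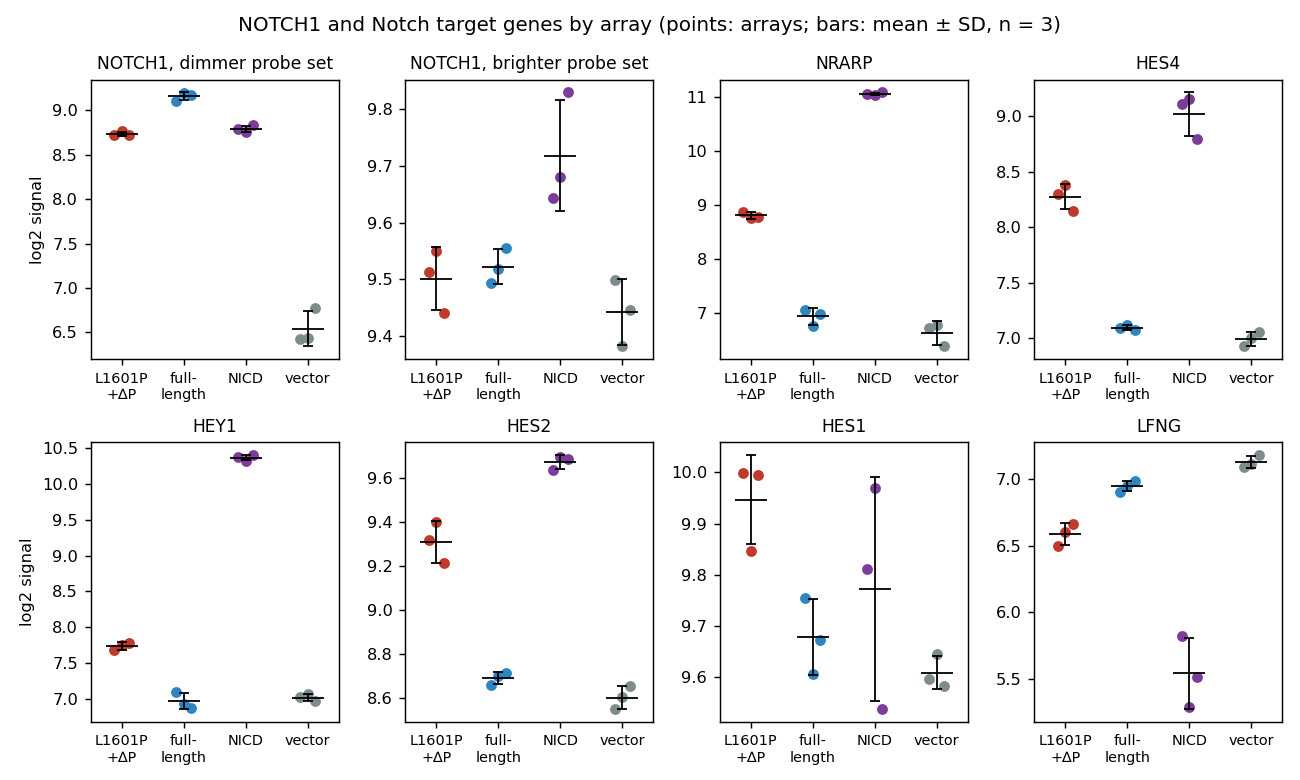
Log2 signals of both NOTCH1 probe sets and of 6 Notch target genes on the 12 arrays, by group, with mean and SD over 3 arrays. The dimmer NOTCH1 probe set, NRARP, HES4, HEY1 and HES2 are higher with L1601P+∆P than with vector on every array, LFNG is lower, and the brighter NOTCH1 probe set overlaps.

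Of 40 receptors, ligands and other components of the pathway, 2 rose and 6 fell (20% called, beside 5.12% of all genes), with a median of -0.05. The rises were those of JAG1 and NOTCH3, and without mutant replicate 1 or 2 or vector replicate 1 or 3 only that of JAG1 was called. JAG2, the other Jagged ligand, went opposite to JAG1: it gave 8.62, 8.57 and 8.42 with the mutant and 9.13, 9.07 and 9.33 with vector, a fall of 0.64 ± 0.09 (adjusted p = 0.00112). DLK2, a noncanonical ligand related to Delta, fell by 0.66 ± 0.07 (adjusted p = 7.94e-05), with 8.66, 8.65 and 8.65 with the mutant and 9.22, 9.34 and 9.38 with vector. The Mastermind coactivators MAML2 and MAML3 fell by 0.35 and 0.37 and the Deltex homologue DTX4 by 0.29. DTX4 lost its call without vector replicate 3 (adjusted p = 0.0666), and MAML3 lost its call in 6 alternatives. RBPJ itself had a difference of -0.13 (adjusted p = 0.215), and the proteases ADAM10 and ADAM17 and the gamma-secretase subunits NCSTN, APH1A and PSENEN were not called.

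Falls were smaller than rises. RAP1A, a small GTPase of the RAS family, had the largest, with 11.81, 11.83 and 11.76 on the mutant arrays and 13.34, 13.34 and 13.44 on the vector arrays (-1.58 ± 0.06, adjusted p = 3.83e-09). Its probe sets disagreed: 2 of 4 were called lower, at -1.58 and -1.87, and the remaining ones gave 0.11 and -0.11. COL8A1, a short-chain collagen, gave 7.84, 7.71 and 7.85 with the mutant and 8.81, 8.82 and 8.91 with vector, a fall of 1.05 ± 0.07 (adjusted p = 1.82e-06) with 2 of 3 probe sets called. KLRC3, a lectin-like receptor gene of natural killer cells, fell by 0.96 ± 0.07, and GREB1, an estrogen-responsive gene, by 0.93 ± 0.08 on 1 of its 3 probe sets. The receptor tyrosine kinase AXL gave 8.15, 8.29 and 8.38 with the mutant and 8.98, 9.09 and 9.10 with vector (-0.78 ± 0.08, adjusted p = 5.59e-05; 1 of 2 probe sets). IRS1, the adaptor of the insulin and IGF receptors, fell by 0.76 ± 0.07 on 1 of 3 probe sets, and the transporter ABCC3 by 0.72 ± 0.06 on 2 of 5. The other genes among the 15 largest falls were ALDH3A1 (-0.80), BLNK (-0.80), XDH (-0.79), TNNI2 (-0.79), MAP7D2 (-0.78), AMIGO2 (-0.76), GSEC (-0.75) and TPRG1 (-0.71). Arrays did not overlap for any of the 15, as in 17.6% of all genes, again by the way they were picked, and all kept their call in every alternative (highest adjusted p = 0.0256). The mutant differed from full-length Notch1 by -0.93 to -0.41 for these genes, which passed the test for all but TPRG1 (adjusted p = 0.0646), and lay 0.52 to 1.83 above NICD.

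Genes of keratinocyte differentiation moved upward where they moved. Of 34 tested, 7 rose and 0 fell (20.6% called, beside 5.12% of all genes), with a median of 0.20. Involucrin (IVL), a precursor of the cornified envelope, gave 7.47, 7.53 and 7.32 with the mutant and 6.46, 6.79 and 6.60 with vector (0.83 ± 0.10, adjusted p = 0.000355). The peptidase KLK10 rose by 0.82 ± 0.09, the stress keratin KRT16 by 0.77 ± 0.09 and the suprabasal keratin KRT10 by 0.66 ± 0.07, on all 3 of its probe sets. Among 18 basal and myoepithelial markers, 3 rose and 5 fell (44.4% called). SNAI2, named above, rose by 0.64, and the basal keratins KRT14 and KRT5 rose by 0.58 ± 0.07 and 0.35 ± 0.05. The largest falls in this list were those of ITGB4 (-0.61), DST (-0.46, called on 5 of 10 probe sets) and LAMB3 (-0.38). KRT15, a keratin of basal progenitor cells, fell by 0.36 ± 0.06. KRT14 gave 13.94, 13.89 and 13.91 with the mutant and 13.38, 13.20 and 13.42 with vector, and KRT15 gave 12.22, 12.15 and 12.04 with the mutant and 12.53, 12.45 and 12.52 with vector. Of 28 luminal markers, 1 rose (CLDN4, 0.36) and 2 fell (GREB1 by 0.93 and EPCAM by 0.31), which is 10.7%, beside 5.12% of all genes. Leaving out single arrays changed the luminal counts to between 0 and 2 rises and to 1 fall.

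Cell junction genes rose in part. Of 27, 6 rose and 1 fell (25.9% called), with a median of 0.11. The desmosomal cadherin DSG3 rose by 0.50 ± 0.05 (adjusted p = 0.000131), its relative DSC2 by 0.42 and the tight junction protein CLDN1 by 0.44 ± 0.05 (adjusted p = 0.000369), while the desmosomal plaque protein PKP2 fell by 0.46 ± 0.07 (adjusted p = 0.00302). Of 22 integrins and laminins 1 rose and 7 fell (36.4% called), with a median of -0.19. ITGB4, the integrin chain of hemidesmosomes, gave 10.38, 10.35 and 10.35 with the mutant and 10.97, 10.89 and 11.06 with vector (-0.61 ± 0.06, adjusted p = 0.000106). It was called on 3 of its 5 probe sets, which ran from -0.72 to 0.14. ITGB2, the shared chain of the leukocyte integrins, fell by 0.55 ± 0.09, called on 2 of 3 probe sets. LAMB3, a chain of laminin-332, fell by 0.38 ± 0.05 and LAMA5 by 0.35, whereas ITGA5, of the fibronectin receptor, rose by 0.50 ± 0.07. The number of falls was 4 without mutant replicate 1 or 2, 3 without vector replicate 3 and 3 after cyclic loess normalization, and the call of LAMA5 ended without vector replicate 3 (adjusted p = 0.0617). Of 25 collagens 0 rose and 6 fell (24% called), with a median of 0.02. After COL8A1 the largest falls were those of COL16A1 (-0.59) and the basement membrane chain COL4A6 (-0.45).

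The list of mesenchymal and EMT (epithelial-mesenchymal transition) markers held 5 rises and 1 fall among 29 genes (20.7% called), with a median of 0.08. ZEB2, a repressor of epithelial genes, rose by 0.93 ± 0.15, fibrillin-1 (FBN1) by 0.87 ± 0.09 and S100A4 by 0.65 ± 0.08, beside POSTN and SNAI2 named above. ZEB2 was called on 1 of its 5 probe sets, which ran from 0.03 to 0.93, and their mean gave 0.39 (still called). The fall, that of TGFBI (-0.22, adjusted p = 0.044), lost its call in 8 of 12 alternatives. VIM stood at 12.11, 12.17 and 12.11 with the mutant and 12.06, 12.12 and 12.26 with vector. Beside these values stand the markers of fibroblasts, endothelium and blood cells. Of these, 2 of 18 rose (POSTN and CD14) and 0 fell (11.1% called, beside 5.12% of all genes). Their summed linear signal was 3645.3 to 3751.5 with the mutant and 3087.6 to 3210.9 with vector, and without POSTN and CD14 it was 2797 to 2897.6 and 2638.5 to 2793.9 in the same order. Their part in the result was not tested. In RNA from a whole culture, more cells of a kind and more RNA per cell cannot be told apart.

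The list of inflammatory cytokines and NF-kB targets held 8 rises and 2 falls among 37 genes (27% called), with a median of 0.11. After CXCL14 the largest rises were those of CD14, the lipopolysaccharide coreceptor (0.86 ± 0.06, adjusted p = 2.01e-06), the cytokine IL1B (0.80 ± 0.08, adjusted p = 5.59e-05) and the chemokine CCL20 (0.53 ± 0.07, adjusted p = 0.000668). CD14 gave 9.57, 9.62 and 9.64 with the mutant and 8.76, 8.66 and 8.84 with vector. The falls, those of CSF3 (-0.39) and TNFAIP2 (-0.35), were not both called without any 1 of the 6 arrays, with 0 or 1 left. Of 28 type I interferon response genes, 1 rose (ISG20, 0.37) and 1 fell (IFI44L, -0.47), which is 7.14%, near the 5.12% of all genes. ISG20 was no longer called in 7 alternatives, and IFI44L ended without mutant replicate 2 (adjusted p = 0.0519) or vector replicate 2 (adjusted p = 0.0544).

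Among 25 EGFR ligands and MAPK feedback genes, 1 rose (CCND1) and 6 fell (28% called), with a median of -0.11. SPRED2, an inhibitor of RAS-MAPK signalling, fell by 0.44 ± 0.05 (adjusted p = 0.000317) on 1 of its 3 probe sets. The ligand epiregulin (EREG) fell by 0.43 ± 0.07 on 1 of 2. The number of falls was 2 without mutant replicate 1 and 3 without vector replicate 2 or 3, and the call of EREG ended in the mean of its probe sets. Of 36 receptor tyrosine kinases 0 rose and 3 fell (8.33% called, beside 5.12% of all genes): AXL, MET and FGFR3. MET, the hepatocyte growth factor receptor, gave 10.70, 10.66 and 10.82 with the mutant and 11.32, 11.30 and 11.28 with vector (-0.57 ± 0.07, adjusted p = 0.000211), with all 4 probe sets called, whereas FGFR3 (-0.23) lost its call in 9 alternatives. In the insulin-like growth factor axis 3 of 16 genes rose and 3 fell (37.5% called). IGFBP3, the most abundant IGF-binding protein of serum, rose by 1.11 ± 0.10 beside IGFL1 and IGFL2, while IGFBP2 (-0.37) and IGFBP6 (-0.35) fell beside IRS1. Without mutant replicate 1 or vector replicate 3, IRS1 was the 1 fall left.

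The TGF-beta and YAP target list held 3 rises and 6 falls among 26 genes (34.6% called), with a median of -0.09, and 2 related members stood far apart. CCN1 (CYR61), a matricellular protein, gave 10.94, 11.13 and 11.08 with the mutant and 8.71, 8.85 and 8.70 with vector, a rise of 2.29 ± 0.07 (adjusted p = 1.37e-09) seen on both of its probe sets. CCN2 (CTGF), of the same protein family, gave 5.54, 5.43 and 5.49 with the mutant and 6.14, 6.04 and 6.15 with vector, a fall of 0.62 ± 0.08 (adjusted p = 0.000552). The largest fall in this list was that of AXL (-0.78), which is also counted among the receptor tyrosine kinases. ID3 rose by 0.56 ± 0.07, and NT5E (CD73) fell by 0.61 ± 0.05, called on 3 of 4 probe sets. Among 32 Wnt ligands, receptors and inhibitors 3 rose and 4 fell (21.9% called). The receptor FZD4 rose by 0.73 ± 0.11 and the ligand WNT5A by 0.40 ± 0.07, each called on 1 of 2 probe sets. The secreted inhibitors DKK1 and SFRP1 fell by 0.40 ± 0.08 and 0.39 ± 0.05, SFRP1 on 2 of 4 probe sets. The number of Wnt falls was 2 without mutant replicate 1 or 2 or vector replicate 1 or 2.

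Genes of steroid, retinoid and aldehyde metabolism were split. Of 42, 4 rose and 8 fell (28.6% called), with a median of -0.02. HSD17B2 led the rises, followed by DHRS9, a retinol and steroid dehydrogenase (0.79 ± 0.14, adjusted p = 0.00558), and the number of rises was 2 without mutant replicate 2 or vector replicate 3. The falls were led by ALDH3A1, an aldehyde dehydrogenase, which gave 8.40, 8.36 and 8.37 with the mutant and 9.03, 9.20 and 9.31 with vector. XDH, the molybdenum enzyme of uric acid formation, fell by 0.79 ± 0.09 and its relative AOX1 (aldehyde oxidase) by 0.67 ± 0.05. DHRS3, which reduces retinal, fell by 0.45 ± 0.08.

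The lists of cell growth and division ranged from 0 to 20% called, beside 5.12% of all genes. None of 35 DNA replication genes was called by limma in either direction, with a median of -0.10. At an unadjusted p under 0.05 there were 0 above and 8 below vector, beside 1666 above and 2466 below among all 19775 genes. After cyclic loess the median of this list was -0.04. Without mutant replicate 3 or without vector replicate 2, 1 of these genes was called lower. Of 30 mitosis genes 1 rose (3.33%), the phosphatase CDC25B (0.43 ± 0.05). The list of growth arrest genes, which includes the inhibitors of cyclin-dependent kinases, held 2 rises and 1 fall among 15 tested (20% called). CDKN1C (p57) gave 9.93, 9.95 and 9.69 with the mutant and 9.08, 9.24 and 8.94 with vector (0.77 ± 0.10, adjusted p = 0.000448), and GADD45A rose by 0.74 ± 0.05. The fall of TXNIP (-0.21) was called without mutant replicate 3 and was not called without any other of the 6 arrays. Of 21 p53 target genes 2 rose (9.52%), PLK2 (0.86 ± 0.06) and PHLDA3 (0.27), of which PHLDA3 was not called without mutant replicate 2 (adjusted p = 0.0572). No gene of the unfolded protein and amino acid stress list rose among 26 tested, while SLC7A5 (-0.43) and SLC3A2 (-0.32), the 2 chains of a large amino acid transporter, fell (7.69% called). Without mutant replicate 3 the falls in that list numbered 4. Of 20 cholesterol and fatty acid synthesis genes limma called none. At an unadjusted p under 0.05 there were 0 above and 4 below vector, beside the 1666 and 2466 of all 19775 genes. Of 27 hypoxia and glycolysis genes 3 fell (11.1%), namely ADM, SLC2A1 and PFKFB3, and 0 or 1 without any 1 of the 6 arrays. Of 19 ribosome biogenesis and MYC target genes 1 fell (5.26%), the polyamine enzyme ODC1 (-0.30). Apart from these lists, 2 of the 9 MCF-10A identity genes rose, KRT5 and KRT14 (22.2% called, beside 5.12% of all genes).

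**Figure D4:**
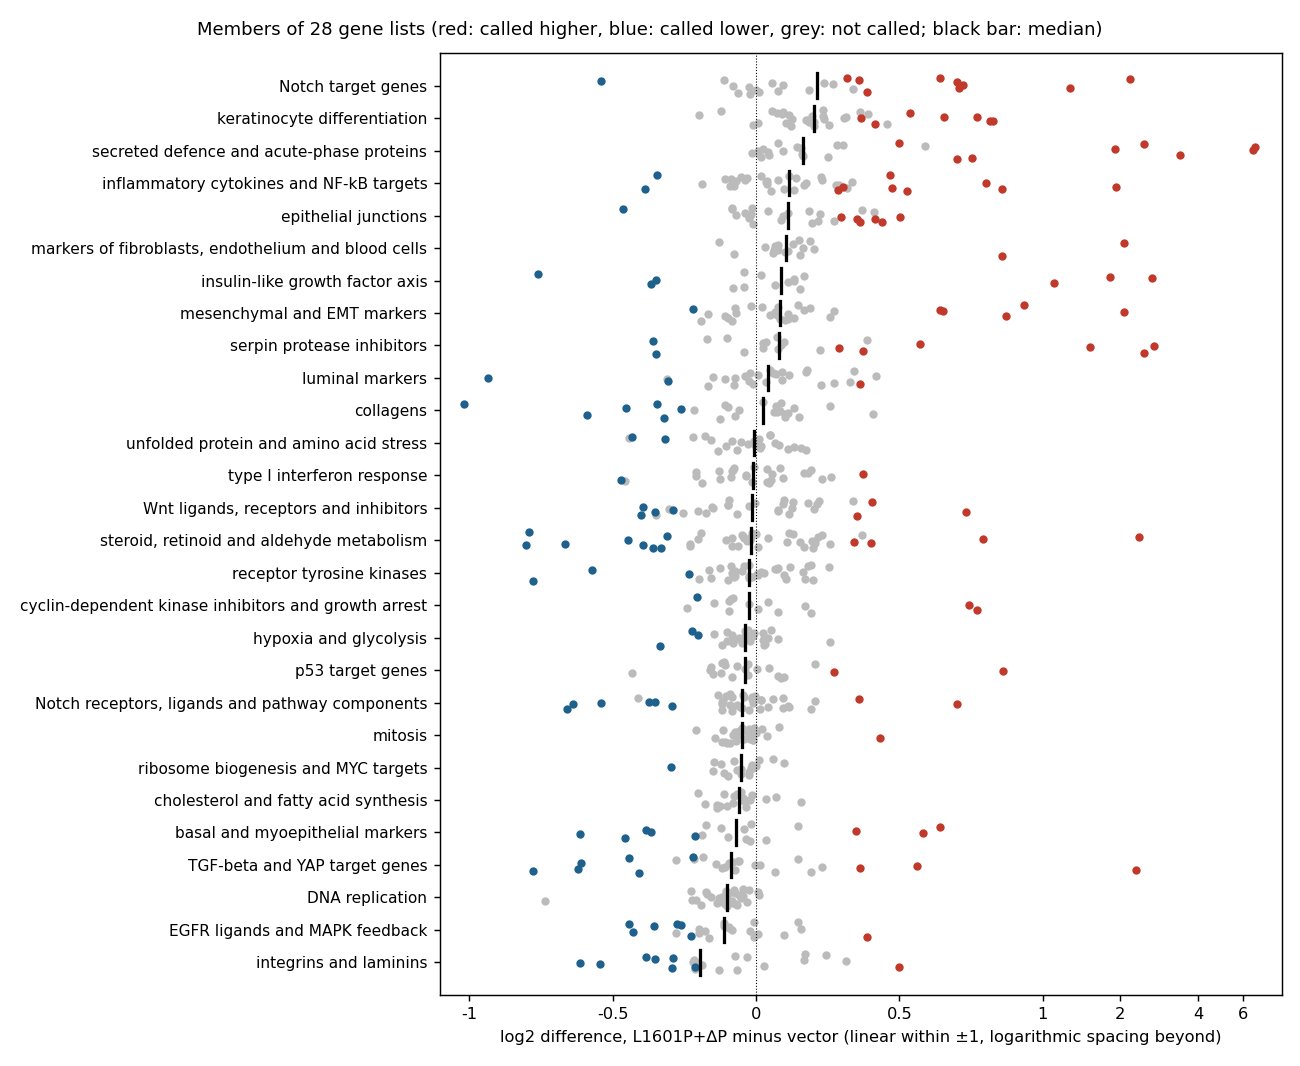
Log2 differences (Notch1 L1601P+∆P minus vector) of the members of 28 gene lists, 1 point a gene, ordered by the list's median, on an axis that is linear within ±1 and logarithmic beyond. Medians run from -0.19 for integrins and laminins to 0.21 for Notch target genes. The points beyond 2 include OLFM4, PLA2G2A, CHI3L2, the serpins SERPINB4 and SERPINA3, IGFL1, HSD17B2, CCN1, NRARP and POSTN.

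Some called genes neighbour each other when the tested genes are ordered by their start in the annotation (GRCh38.p14). Genes not tested were passed over, and no limit was set on the distance. The pairs were listed after their values were seen, with no test of how often neighbours move together. In that order PLA2G2A (6.64) lies next to PLA2G5 (1.03), and SERPINB13 (0.29), SERPINB4 (2.71) and SERPINB3 (1.53) follow each other. WFDC12 (0.77) lies next to PI3 (1.91), CDH16 (0.80) next to RRAD (1.99) and MYEOV (1.29) next to CCND1 (0.39). On the falling side DCBLD2 (-0.35) lies next to COL8A1 (-1.05).

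Set directly against wild-type full-length Notch1, the mutant had 368 genes higher and 367 lower, which is 1.86% in each direction and 3.72% of all genes. The largest excesses were again those of OLFM4 (4.32 ± 0.13), PLA2G2A (3.38 ± 0.07) and CHI3L2 (2.98 ± 0.10). NRARP was higher by 1.87 ± 0.10 (adjusted p = 3.43e-07), HES4 by 1.18 ± 0.09 (adjusted p = 7.87e-06) and HEY1 by 0.77 ± 0.06 (adjusted p = 1.29e-05), while HES1 (0.27, adjusted p = 0.141) and LFNG (-0.36, adjusted p = 0.0858) were not called. The antimicrobial ribonuclease RNASE7 was lower by 0.67 (adjusted p = 0.0155), and AGR2, a secretory-pathway disulfide isomerase, by 0.70 (adjusted p = 0.0259). AGR2 was not called against vector (-0.17, adjusted p = 0.568). The total was 462 without mutant replicate 1, 403 without mutant replicate 2, 474 without full-length replicate 2 and 409 without full-length replicate 3.

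Set against NICD, the mutant had 2196 genes higher and 1727 lower, 11.1% and 8.73% of all genes and 19.8% together. The largest shortfalls included genes not called against vector. ACKR3, an atypical chemokine receptor, gave 3.6, 3.66 and 3.84 with the mutant and 3.49, 3.36 and 3.56 with vector. Each mutant array was slightly above the vector arrays, as in 10.9% of all genes. That difference of 0.23 was not called (adjusted p = 0.247), at levels near the bottom of the measured range, where differences are compressed, and the mutant was 5.99 ± 0.11 lower than with NICD (adjusted p = 4.27e-12). GABRP, a GABA-A receptor subunit, was 5.92 lower than with NICD, with a difference from vector of 0.33 (adjusted p = 0.159). IGFBP7-AS1 was 5.12 lower than with NICD and 1.29 ± 0.11 higher than with vector, and PLA2G5 was 4.31 lower and 1.03 ± 0.11 higher. On the opposite side KRT15 was 2.18 ± 0.06 higher than with NICD, the forkhead factor FOXQ1 2.02 ± 0.07 higher and the surface protein PSCA 1.98 higher. PSCA was not called against vector (-0.28, adjusted p = 0.139), whereas FOXQ1 fell by 0.62 against vector. KRT14 (0.01, adjusted p = 0.911), KRT10 (-0.03, adjusted p = 0.828) and CLDN1 (-0.09, adjusted p = 0.279) had differences from NICD that did not pass the test.

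The mutant was highest of the 4 groups, called in all 3 of its comparisons, for 13 genes (0.0657%) and lowest for 14 (0.0708%). IL1B was the member of the inflammatory list among the highest: it gave 9.18, 9.30 and 9.17 with the mutant, and group means were 9.22 with the mutant, 8.43 with full-length Notch1, 8.93 with NICD and 8.42 with vector. Its margin over NICD was 0.29 ± 0.08 (adjusted p = 0.0188). HRK, a proapoptotic BCL2-family protein, averaged 7.91 with the mutant, 7.59 with full-length Notch1, 7.61 with NICD and 7.46 with vector. Against vector 3 of its 5 probe sets were called, and the 5 ran from -0.12 to 0.47. Others of the highest included OR7A17 (0.50 above vector), LINC02388 (0.47), HRH4 (0.46), ACY3 (0.37), LOC101928850 (0.37), SCAMP5 (0.32), OPCML (0.32) and BSN-DT (0.31). Against vector BSN-DT lost its call in 9 of 11 alternatives, HRH4 and OPCML in 4 each (OPCML at 0.17 in the mean of its probe sets), ACY3 and LOC101928850 in 2 each and SCAMP5 in 1. Lowest with the mutant was PTX3, the long pentraxin of innate immunity, at 6.66, 6.89 and 7.16 with the mutant and 7.32, 7.62 and 7.57 with vector. Its group means were 6.90 with the mutant, 7.34 with full-length Notch1, 7.99 with NICD and 7.50 with vector, so that it was below vector with the mutant and above it with NICD. Its fall of 0.60 against vector was no longer called when the 2 groups were fitted alone (adjusted p = 0.0538). CLGN, a testis chaperone, averaged 4.82 with the mutant and 5.46 with vector, and RTN1, PODXL, KIRREL1 and BTBD3 were 0.45, 0.29, 0.36 and 0.27 lower than with vector. The remaining ones named by the same rule were DMD, LRIG3, ZNF83 and MYO10. Against vector DMD lost its call in 9 of 12 alternatives (-0.05 in the mean of its probe sets), LRIG3, ZNF83 and MYO10 in 7 each, and KIRREL1 in the mean of its probe sets (-0.15, adjusted p = 0.188). These counts are small and moved with single arrays: the highest numbered 4 without mutant replicate 2 and 8 without full-length replicate 2 or 3, and the lowest numbered 4 to 28 over all arrays left out in turn.

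**Figure D5:**
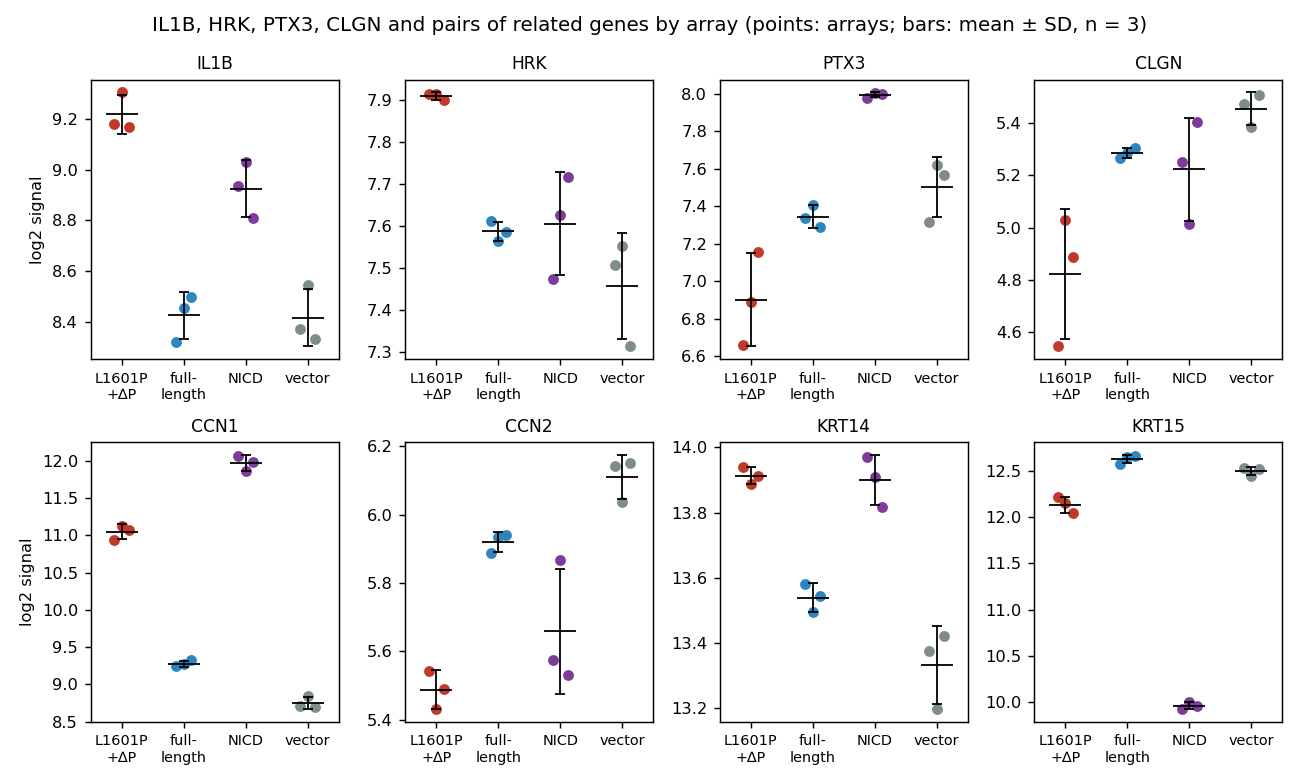
Log2 signals on the 12 arrays by group, with mean and SD over 3 arrays, for 2 genes highest with L1601P+∆P (IL1B and HRK), 2 lowest with it (PTX3 and CLGN) and the pairs CCN1 and CCN2, and KRT14 and KRT15. CCN1 is higher and CCN2 lower with the mutant than with vector, and KRT14 is higher and KRT15 lower, on every array.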

How the data were processed

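Total RNA from MCF-10A cells was biotin-labelled and hybridised to Affymetrix arrays with 54675 probe sets, per the labels' protocols. The values are the deposited log2 signals, made with RMA, which includes quantile normalization, per the submitters' processing notes, which also name limma. The sources used here give no versions. Quantile normalization removes a shift shared by most genes. Arrays have no read depth, and their number limits the precision.

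Of the probe sets, 41091 carried 1 gene symbol in the platform annotation, 1801 several and 11721 none, and 62 were controls. The probe set with the highest mean over the 12 arrays stood for each of 19775 genes. The test was that of limma 3.58.1, run in R 4.3.3 by lmFit, contrasts.fit and eBayes (group means only, all 12 arrays, 8 residual and 4.09 prior degrees of freedom), two-sided, with Benjamini-Hochberg adjustment over all genes and a call under 0.05. Groups do not overlap where every array of one lies above every array of the other. The scripts were tested on simulated data.

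The comparison, its members and the 29 gene lists (763 genes, 698 tested) were chosen with earlier results of these data known. The genes named were NOTCH1 with every probe set, the 20 largest rises and 15 largest falls among called genes without overlap, members of both Notch lists, up to 4 called members per direction of other lists, the 8 largest differences per direction from full-length Notch1 and NICD, up to 10 genes highest or lowest of the 4 groups, and all MCF-10A identity genes. C1S, C1R, SLPI, genes named as not called in the defence list and annotation neighbours were chosen after their values were seen. Of the 20 largest rises, 1 is not reported here.

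Same-numbered mutant and vector arrays did not deviate together (r = 0.055, -0.027 and -0.022), so the numbers were not taken as pairs. Alternatives were cyclic loess, leaving out genes with a mean below 5, the mean of all probe sets of a gene, trend and robust moderation, the replicate block, the 2 groups alone and each array left out. Promoters came from RefSeq (GRCh38.p14).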

Additional observations from a re-analysis of the deposited data

Results flagged for a closer look

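The 13522 probe sets with several gene symbols or none lay outside the gene-level comparison and were tested apart. Of these, 34 were called higher and 38 lower with Notch1 L1601P+∆P than with vector, which is 0.532% of them. Of the called ones, 21 carried several symbols and 51 none, and they are unnamed here. Among the 41091 probe sets with 1 symbol, 1.45% were called higher and 1.85% lower. The adjustment was made within each set, so these shares are not strictly alike. At an unadjusted p under 0.05, 795 of the 13522 lay above and 687 below vector, beside 1666 and 2466 of the 19775 genes.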

How the results depend on the processing

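Of 151 named genes called against vector, 104 kept their call in every alternative and 47 lost it in at least 1, and none of the 151 changed sign in that comparison. Of 57 named genes not called, 4 were called in at least 1 alternative and 21 lay on both sides of 0. In the mean of a gene's probe sets the difference was over 1.5 times smaller for 16 genes that lost their call there and for 21 that did not, the 21 including PAPPA (0.78), POSTN (0.84), CCDC102B (1.25), HES2 (0.42), JAG1 (0.43), RAP1A (-0.86), GREB1 (-0.24) and ITGB4 (-0.37), and DHRS9 was larger (1.24). The 2.20 rise of the dimmer NOTCH1 probe set (2.14 to 2.31 with 1 array left out) and the uncalled 0.06 of the brighter one (0.03 to 0.09) kept their side of the threshold. Of 1012 calls against vector, 736 were shared after cyclic loess, where falls numbered 360. Trend and robust moderation gave 1616 calls (1076 falls), and the 2 groups alone gave 372 falls. With 1 array left out the totals were 566 to 957, the rises 288 to 417 and the falls 272 to 568. Against full-length Notch1, trend and robust moderation gave 1256 calls (798 lower). Lower calls there numbered 229 after cyclic loess, 557 without dim genes and 231 with the 2 groups alone. With 1 array left out these were 403 to 642 in all, 228 to 317 higher and 162 to 326 lower. Against NICD the totals were 3010 to 3982, with 1640 to 2418 higher and 1370 to 1656 lower. Genes highest of the 4 groups numbered 4 to 17 with 1 array left out. Genes lowest of the 4 groups numbered 4 to 28 with 1 array left out, 9 after cyclic loess, 26 without dim genes and 35 with trend and robust moderation. ZNF83 reversed against NICD in the mean of its probe sets (0.25, adjusted p = 0.0504). After cyclic loess no called list member changed sign, and list medians that changed sign lay within 0.05 of 0 on both scales. The causes were not tested. An array left out also means fewer samples.

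With the replicate number as a block, 845 genes were called against vector (388 higher, 457 lower; 788 shared), 584 against full-length Notch1 and 3642 against NICD, and genes lowest of the 4 groups numbered 9. The pairing was not used, since same-numbered arrays did not deviate together.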
